A study of Homo sapiens with 48 samples.

Results

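Mesoderm cultures differentiated from a human embryonic stem cell line were compared with undifferentiated cultures of the same line by targeted RNA counting. The comparison took 8 of the 48 libraries of the series, chosen by their labels alone: 4 libraries of mesoderm and 4 of hESC (human embryonic stem cells). The line was WA09, also called H9, an established line labelled as of normal genotype in every library. The hESC cultures had no treatment. The mesoderm cultures had been kept in STEMdiff Mesoderm Induction Medium, a commercial kit, for 5 days, and the study used them as positive controls for lineage expression. The labels do not give the kit's factors. Endoderm cultures (STEMdiff Definitive Endoderm Kit, 5 days) and ectoderm cultures (LDN-193189 at 100 nM with A83-01 at 2 µM in E6 medium, 6 days), 4 libraries each, served here as comparison groups. The labels do not say whether the libraries of a group came from separate cultures, so the p-values below measure only the spread between these libraries, which may be technical.

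Mesoderm is the middle germ layer. In the embryo it arises at the primitive streak, where epithelial cells that express T (brachyury, current symbol TBXT) lose epithelial contacts and become mesenchymal. Signals of the WNT, BMP and Nodal families drive this step, and the position of a cell along the streak and its later fate are marked by transcription factors such as CDX2 (posterior), HAND1 and FOXF1 (lateral plate) and MSX1 (a BMP target). Stem cells before this step are held undifferentiated by NANOG, SOX2 and their partners.

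RASL-Seq was the assay: probe pairs that anneal next to each other on captured polyadenylated RNA are joined by ligase, amplified and counted. The panel held 1113 probes for 452 genes, and reads of all probes of a gene were summed. Totals ran from 1773969 to 2801704 reads in hESC and from 2358531 to 3482191 in mesoderm. Levels are given as CPM, counts per 1000000 reads of the library total after TMM scaling, which sets libraries to a common scale. They can be compared for 1 gene between libraries but not between genes, because probes differ in capture. In bulk samples such as these, fewer cells of a type and less RNA per cell cannot be told apart.

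The promoters of the 3 genes that mark the mesoderm cultures below, and of NANOG, a core pluripotency factor whose RNA fell, are shown to give their sequence context. Each run is the 250 bases before the RefSeq transcription start (GRCh38.p14), 5′ to 3′ on the strand of the gene. Capitals mark every match, on either strand, to 8 short motifs. For the TCF/LEF factors of WNT signalling these were CTTTGAA and a second form, CTTTGAT. The motif searched for CDX factors was TTTATNG. For GATA factors it was AGATAA, and for POU factors the octamer ATGCAAA. The SOX motif was CATTGT. For T-box factors the letters TCACACC were searched, and the last was the CCAAT box found in promoters of many kinds.
CDX2, chr13:27969316-27969565, minus strand: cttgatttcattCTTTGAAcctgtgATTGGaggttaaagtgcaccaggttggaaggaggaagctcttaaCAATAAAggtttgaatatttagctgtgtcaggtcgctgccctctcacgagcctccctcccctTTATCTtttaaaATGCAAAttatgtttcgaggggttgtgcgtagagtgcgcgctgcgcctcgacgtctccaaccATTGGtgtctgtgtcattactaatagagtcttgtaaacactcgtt
HAND1, chr5:154478228-154478477, minus strand: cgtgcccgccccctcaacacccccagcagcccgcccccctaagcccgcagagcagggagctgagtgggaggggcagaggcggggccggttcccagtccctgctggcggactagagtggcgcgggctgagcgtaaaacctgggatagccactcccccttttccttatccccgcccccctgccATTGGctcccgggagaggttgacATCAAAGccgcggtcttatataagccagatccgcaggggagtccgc
MSX1, chr4:4859415-4859664, plus strand: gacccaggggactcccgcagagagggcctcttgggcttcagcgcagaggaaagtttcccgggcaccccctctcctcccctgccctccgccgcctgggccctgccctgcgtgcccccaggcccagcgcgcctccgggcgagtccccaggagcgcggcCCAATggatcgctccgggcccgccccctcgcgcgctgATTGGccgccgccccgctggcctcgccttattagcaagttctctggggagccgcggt
NANOG, chr12:7789152-7789401, plus strand: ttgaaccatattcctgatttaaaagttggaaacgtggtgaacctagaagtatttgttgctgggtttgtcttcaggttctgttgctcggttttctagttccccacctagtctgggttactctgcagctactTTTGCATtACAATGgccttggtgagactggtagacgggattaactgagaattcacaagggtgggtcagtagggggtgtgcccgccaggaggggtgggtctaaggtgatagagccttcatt

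The CDX2 window held a TCF/LEF match 238 bases before the start, a CDX match at 181, a GATA match at 119 and an octamer match at 107. The HAND1 window held a TCF/LEF match 46 bases before the start. In the NANOG window an octamer match at 120 bases stood beside a SOX match at 112 bases, with a single base between them in the sequence above. The MSX1 window held no match but CCAAT boxes, and none of the 4 windows held the T-box letters. Over 27305 promoters of the same length, CTTTGAA was found in 3.88%, CTTTGAT in 2.28%, TTTATNG in 9.29% and AGATAA in 9.37%. ATGCAAA was found in 3.98%, CATTGT in 9.45%, TCACACC in 2.72% and CCAAT in 33%. These matches describe letters and were not tested for binding.

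Mesoderm and hESC differed over most of the panel. Of 387 genes with enough reads to be tested, 316 (81.7%) passed an adjusted p of 0.05 by edgeR's quasi-likelihood F test (Benjamini-Hochberg over those genes), and 303 (78.3%) had no overlap between the 4 libraries of each group. In mesoderm 153 genes (39.5%) were higher and 163 (42.1%) lower. Among the called genes the median absolute log2 fold change was 1.43, and 205 genes changed by at least 1 on the log2 scale (100 higher, 105 lower). At least 3 on that scale was reached by 46 higher and 50 lower genes. Because so much of the panel moved, the count of called genes in any gene list below is to be read against these shares and against the median log2 fold change over all 387 genes, which was -0.10.

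The reference genes of the panel did not hold a common level. GAPDH, a glycolytic enzyme, was at 48702 ± 2559 CPM in mesoderm and 94577 ± 7975 in hESC (SD, n = 4 each), a log2 fold change of -0.96 ± 0.07 (SE). ACTB and PGK1 were lower by -0.45 ± 0.08 and -0.51 ± 0.17, and the ribosomal gene RPL13A was not called at 0.03 ± 0.08. Scaling on these genes instead of TMM moved the median of all genes by 0.54 and turned the split of the calls to 206 higher and 111 lower (65% higher, against 48.4% with TMM). It changed the sign of 32 called genes, all of them lower with TMM by 0.54 or less on the log2 scale. Small decreases below are therefore relative to TMM, and a change of sign is given for genes whose own values are printed below.

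Mesoderm replicate 3 stood apart from the other 3 mesoderm libraries. Over 274 genes with a mean of at least 50 reads in mesoderm, a single library lay apart by Dixon's test at 41 genes (15%, where chance gives about 5%), and at 33 of them the library was replicate 3, 20 times the highest and 13 times the lowest. LDHA, the lactate dehydrogenase subunit of glycolysis, was at 9079 CPM in it and at 3515 to 4023 in the others. RPS21, a ribosomal protein gene, was at 180 CPM against 47.9 to 53.7. In hESC a library lay apart at 18 of 272 genes (6.62%). Without mesoderm replicate 3 the test called 317 genes, and 306 of the 316 calls kept their direction and their call. Values without it stand beside the named genes and lists whose calls it changed.

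**Figure D1:**
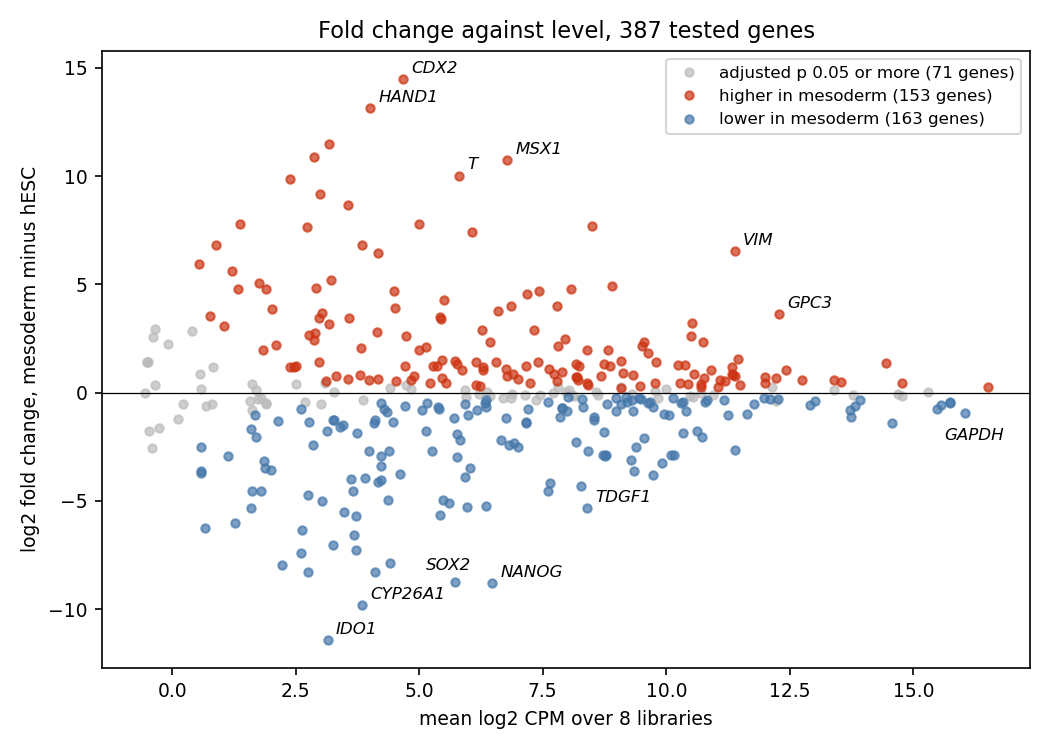
Log2 fold change of mesoderm against hESC (vertical axis) plotted against the mean log2 CPM over the 8 libraries (horizontal axis) for the 387 tested genes. Each point is a gene: red, 153 higher in mesoderm; blue, 163 lower; grey, 71 not called. CDX2, HAND1, MSX1 and T lie at the top and IDO1, CYP26A1, NANOG and SOX2 at the bottom, while VIM and GPC3 combine a large increase with a high level.

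The genes that mark the mesoderm label were at or near 0 in hESC and high in every mesoderm library. CDX2, a homeobox factor of the posterior embryo that is also expressed in trophoblast and later in intestine, was at 941, 898, 1256 and 818 CPM in mesoderm replicates 1 to 4 and had no read in any hESC library. Counted against a floor of 3 reads per library, CDX2 was at least 783-fold higher (adjusted p 2.55e-14 in edgeR's test). HAND1, a basic helix-loop-helix factor of lateral plate and extraembryonic mesoderm, was at 418, 398, 336 and 383 CPM against 0 in all hESC libraries, at least 307-fold higher (adjusted p 5.36e-15). MSX1 was at 4063, 3804, 4612 and 3985 CPM in mesoderm and at 3.18, 1.65, 3.46 and 1.34 in hESC, a log2 fold change of 10.75 ± 0.16 (adjusted p 8.84e-23). For these 3 genes the lowest mesoderm library lay far above the highest hESC library.

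The increase of CDX2 was carried by each of its 3 probes. The probe at position 1770 of its RefSeq transcript gave 651 ± 35.3 CPM in mesoderm, the probe at position 1440 gave 224 ± 133 and the probe at position 20 gave 46.9 ± 6.45 (SD, n = 4). None of them had a read in hESC. The probe at position 1440 held the spread of the gene, from 135 to 421 CPM between mesoderm libraries. MSX1 was likewise called with each of 3 probes (3146, 538 and 207 CPM in mesoderm) and HAND1 with each of 2 (235 and 130 CPM). Tested one by one, 700 of 903 probes (77.5%) were called. Over the panel, 322 genes had at least 2 tested probes and 270 of these were called as a sum. All probes of 255 went in the direction of the sum, and in 205 every probe was called in that direction. Only IFITM1 and RPL13A had probes called in opposite directions, and neither was called as a sum.

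T, the defining factor of the primitive streak, was high at 5 days. It was at 1428, 1468, 1700 and 1497 CPM in mesoderm and between 0.89 and 1.98 in hESC (log2 fold change 10.02 ± 0.17, adjusted p 1.11e-21 in edgeR's test). Of the streak list, 4 genes were on the panel and 3 could be tested; T and PDGFRA, a growth factor receptor of early mesoderm, were higher and none was lower. PDGFRA reached 12.4 ± 1.84 CPM from 0.441 ± 0.411 (4.79 ± 0.38). EOMES, a T-box factor of the anterior streak and of endoderm, was at 0.57, 0.76, 3.71 and 2.21 CPM in mesoderm and between 0 and 0.66 in hESC, and was not called (adjusted p 0.0977). It was called at 0.0481 with library totals as the scaling.

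Of 11 genes of the lateral plate and of its heart and gut wall derivatives on the panel 7 were tested, and 6 were higher, HAND1 and MSX1 among them, and 1 lower, with a median log2 fold change of 10.75, or 6.58 with the genes at 0 in a group set to their bound. FOXF1, a forkhead factor of the mesoderm around the gut, was at 124, 126, 106 and 122 CPM against 0 in hESC, at least 95.5-fold higher. MYH6, the heart muscle myosin heavy chain alpha, was at 74.1, 84.5, 72.4 and 83.2 CPM against 0, at least 62.9-fold higher; it is a near copy of MYH7, so reads of the pair may not be fully separated. GATA6, a zinc finger factor of heart and endoderm, was at 73.0, 85.8, 97.3 and 77.1 CPM with a single read in hESC. That is a ratio of 809, with a 95% exact counting interval from 145 to 31970; without hESC replicate 2, which held that read, hESC was at 0. ISL1, a LIM factor of the second heart field and of amnion, was low but present at 4.17 to 9.65 CPM (4.79 ± 0.65).

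Other heart genes of the list were lower or had too few reads to be tested. TNNT2, a sarcomere gene of beating heart muscle, had no read in mesoderm and 2.23 to 3.95 CPM in hESC, at least 3.55-fold lower (adjusted p 1.72e-06). HAND2, NKX2-5, MEF2C and HOPX, all factors of the heart lineage, had at most 5 reads in any library of either group and were not tested. Paraxial and intermediate mesoderm was represented by PAX3 and LHX1 alone. PAX3, a paired-box factor of somites and neural crest, rose from 0 to 9.16 ± 0.915 CPM, at least 7.33-fold. LHX1, a LIM factor of the intermediate mesoderm, rose from 2.32 ± 0.760 to 15.3 ± 2.26 CPM (2.67 ± 0.26). Both were low, and no overlap was seen between the groups. Together they summed to 22.5 to 26.4 CPM in mesoderm, below the 194.4 to 248.4 of ectoderm and the 647.4 to 731.8 of endoderm.

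Endothelial and blood markers were not higher. Of 6 on the panel, CDH5, PECAM1, PLVAP and PTPRC had at most 4 reads in any mesoderm or hESC library. KDR, the VEGF receptor that marks vascular progenitors and is also expressed by hESC, fell from 212 to 225 CPM in hESC to 20.4, 23.2, 12.3 and 21.1 in mesoderm (-3.49 ± 0.13, adjusted p 4.85e-16 in edgeR's test). SOX7, an endothelial SOX factor, was at 6.08 ± 0.763 CPM against 4.5 ± 2.42 and was not called. The list summed to 20.0 to 29.8 CPM in mesoderm and 216.6 to 232.4 in hESC.

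Genes of mesenchymal cells and of the epithelial to mesenchymal transition moved together. All 8 on the panel were tested: 7 were higher and 1 lower, with a median log2 fold change of 4.23. They summed to 33099 to 36379 CPM in mesoderm against 3551 to 3719 in hESC. The sum was higher still in endoderm, at 40151 to 41390 CPM, and was 8655 to 9207 in ectoderm. It includes the 1 lower gene, the epithelial marker EPCAM, at 2262 CPM in hESC and 185 in mesoderm. VIM, SNAI2 and CD44 were at 4668, 1.63 and 0.71 CPM in endoderm, below mesoderm. Most of the endoderm sum therefore lay in other members, and the sum does not rank the cultures as mesenchymal. VIM, the intermediate filament of mesenchymal cells, was at 24387, 25838, 27675 and 24735 CPM in mesoderm and at 264, 303, 289 and 262 in hESC (6.52 ± 0.09, adjusted p 2.75e-23). SNAI2, a repressor of epithelial genes, rose from 1.87 ± 0.978 to 433 ± 31.0 CPM (7.78 ± 0.18). CD44, the hyaluronan receptor, was at 178, 160 and 164 CPM in 3 mesoderm libraries and at 87.2 in replicate 3, against 0.99 to 2.23 in hESC (6.47 ± 0.32). PDGFRB and TAGLN, a receptor and an actin-binding protein of perivascular and smooth muscle cells, rose by 3.67 ± 0.24 and 3.21 ± 0.10.

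The cadherin and epithelial markers went in opposite directions in the same libraries. CDH2 (N-cadherin) was at 3377, 3563, 3634 and 3646 CPM in mesoderm and at 561 to 618 in hESC (2.60 ± 0.07). EPCAM, the adhesion molecule of epithelial and undifferentiated stem cells, was at 171 to 199 CPM in mesoderm and 2223 to 2282 in hESC (-3.61 ± 0.09, adjusted p 5.27e-19 in edgeR's test). Neither gene overlapped between the groups.

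**Figure D2:**
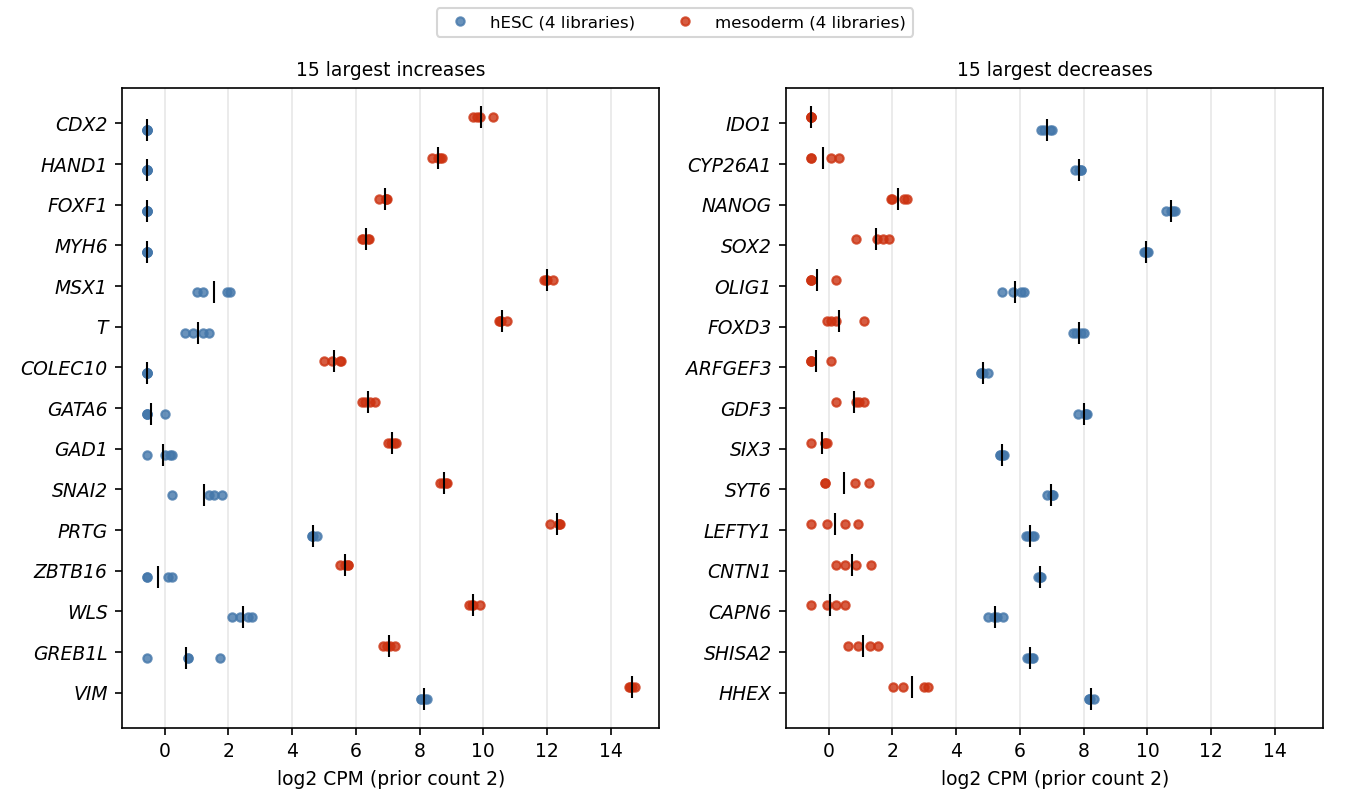
Log2 CPM (prior count 2) in each of the 4 mesoderm (red) and 4 hESC (blue) libraries for the 15 genes with the largest increases (left) and the 15 with the largest decreases (right) among called genes that averaged 50 reads or more in the group with more; black bars are group means. The groups are separate in all 30 genes, which were picked for large changes. Over the 387 tested genes they were separate in 303 (78.3%). CDX2, HAND1, FOXF1, MYH6 and COLEC10 lie at the level of 0 reads in every hESC library, as IDO1 does in every mesoderm library.

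Other genes with the largest increases were of several kinds. WLS, the carrier that takes WNT proteins to the cell surface, was at 791, 814, 953 and 752 CPM against 3.62 to 5.97 in hESC (7.42 ± 0.14, adjusted p 2.35e-21). PRTG (protogenin), a cell surface protein of the early embryonic axis, was at 4365, 5310, 5438 and 5326 CPM against 23.9 to 26.7 (7.69 ± 0.14). GREB1L, which is needed for kidney formation, rose from 1.16 ± 1.11 to 131 ± 14.9 CPM (6.81 ± 0.24), or by 7.47 without hESC replicate 4. GAD1, the enzyme that makes the transmitter GABA, was at 127 to 152 CPM against 3 reads in all of hESC, a ratio of 456 (95% exact interval 156 to 2213). ZBTB16, a zinc finger repressor, had a ratio of 244 over 2 hESC reads (67.4 to 2022). COLEC10, a secreted lectin, was at least 31.8-fold higher, at 31.6 to 45.7 CPM.

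Genes of the undifferentiated state fell, but not all and not equally. Of 22 pluripotency genes on the panel 21 were tested: 19 were lower and 2 higher, with a median log2 fold change of -3.09. Together they summed to 5633 to 5958 CPM in mesoderm and 22776 to 24012 in hESC. The sum was 23016 to 25850 CPM in endoderm and 14928 to 15991 in ectoderm, so it did not set hESC apart from endoderm. NANOG was at 4.88, 3.28, 4.45 and 3.19 CPM in mesoderm and at 1725, 1885, 1773 and 1542 in hESC (-8.79 ± 0.16, adjusted p 2.26e-21). SOX2 was at 1.15, 3.03, 2.60 and 2.21 CPM against 1032, 982, 948 and 1009 (-8.76 ± 0.21, adjusted p 4.49e-18). FOXD3, a forkhead factor of pluripotent cells and neural crest, fell from 231 ± 24.9 to 0.659 ± 0.550 CPM (-8.28 ± 0.24), or by 9.05 without mesoderm replicate 4. POU5F1 had few reads in hESC as well, at 4.28 to 9.80 CPM with its single probe. It had a single read in mesoderm (ratio 103, 95% exact interval 17.9 to 4114). Probes differ in capture, so this level does not show how much POU5F1 RNA hESC held.

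A middle group of pluripotency genes fell to a level that stayed well above 0. L1TD1, an RNA-binding protein of embryonic cells, was at 228 ± 14.5 CPM against 3184 ± 123 (-3.80 ± 0.07). DNMT3B, a de novo DNA methyltransferase, and DPPA4 were at 423 ± 29.0 and 409 ± 39.2 CPM in mesoderm and lower by -2.87 ± 0.09 and -2.86 ± 0.08. PODXL, a surface glycoprotein, was lower by -3.09 ± 0.07. LIN28A, which blocks the maturation of let-7 microRNAs, fell by 1.00 ± 0.07 to 2238 ± 57.3 CPM. Its paralog LIN28B rose by 0.46 ± 0.08, and SALL4, a zinc finger factor, rose by 0.89 ± 0.09. LIN28B was at 919, 1075, 1000 and 1085 CPM in mesoderm and 683 to 792 in hESC, so the groups did not overlap.

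IDO1 and CYP26A1, the given hESC markers, were at or near 0 in mesoderm. IDO1, which breaks down tryptophan, was at 123, 129, 108 and 101 CPM in hESC and had no read in any mesoderm library, at least 133-fold lower (adjusted p 5.85e-11 in edgeR's test). CYP26A1, which breaks down retinoic acid, was at 212, 241, 229 and 242 CPM in hESC and had 3 reads over the mesoderm libraries, a ratio of 1095 (95% exact interval 374 to 5312). Its log2 fold change in the fit was -9.83, and -10.73 without mesoderm replicate 1. The groups did not overlap for either gene. Neither is confined to hESC among the control cultures: CYP26A1 was at 18220 ± 626 CPM in endoderm and IDO1 at 16 ± 6.76.

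Other genes among the 15 largest decreases fell outside these lists. SYT6, a synaptotagmin of vesicle release, was at 116 to 130 CPM in hESC and 0.25 to 1.72 in mesoderm (-7.25 ± 0.28, or -7.94 without mesoderm replicate 1). CNTN1, a contactin of axons, fell from 97.9 ± 2.93 to 1.06 ± 0.594 CPM (-6.57 ± 0.23). SHISA2, which holds back Frizzled and FGF receptors inside the cell, fell by 5.71 ± 0.19 and CAPN6, a calpain without protease activity, by 6.33 ± 0.26. ARFGEF3 was at 26.7 to 31.1 CPM in hESC and had a single read in mesoderm, in replicate 3 (ratio 399, 95% exact interval 71.1 to 15830).

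Nodal pathway genes were lower. All 5 on the panel were called lower, with a median of -5.34, and they summed to 55.0 to 67.1 CPM in mesoderm and 2435 to 2742 in hESC. TDGF1, the Nodal co-receptor also called Cripto, was at 54.9, 63.8, 40.8 and 52.1 CPM against 2384, 2116, 2109 and 2015 (-5.34 ± 0.28). GDF3, a ligand of the same receptor family, fell from 257 ± 21.2 to 1.10 ± 0.427 CPM (-7.87 ± 0.19), and NODAL itself fell from 8.94 ± 1.76 to 0.342 ± 0.236 CPM (-4.52 ± 0.40). LEFTY1, an inhibitor and target of Nodal, was at 72.6 to 85.9 CPM in hESC and 0 to 1.23 in mesoderm (-7.03 ± 0.89, adjusted p 6.12e-06), or -7.86 without mesoderm replicate 4. LEFTY2, a near-identical copy of LEFTY1 whose reads may not be fully separated from it, was the least certain. It was at 0.86, 1.51, 12.6 and 0.74 CPM in mesoderm and 47.9 to 60.2 in hESC (-3.98 ± 1.42, adjusted p 0.0197 in edgeR's test). Without mesoderm replicate 3 the log2 fold change was -5.61, and without mesoderm replicate 4 the adjusted p was 0.0503.

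WNT pathway genes moved in both directions. Of 6 tested, 1 was higher and 5 lower, with a median of -1.39. Among the Frizzled receptors, FZD5 fell from 376 ± 12 to 9.70 ± 1.26 CPM (-5.28 ± 0.09), FZD3 fell by 1.01 ± 0.13 and FZD7 rose from 486 ± 13.2 to 858 ± 60.5 CPM (0.82 ± 0.06). The secreted antagonists SFRP1 and FRZB were lower by -1.76 ± 0.06 and -0.89 ± 0.15; FRZB was not called with reference gene scaling. SFRP1 stayed at 808 to 878 CPM in mesoderm. MYC, the remaining member of the list, fell from 636 ± 21.9 to 129 ± 6.14 CPM (-2.30 ± 0.08). WNT1, the ligand on the panel, was not tested.

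Other signalling readouts were few. Of 3 BMP genes 2 were higher and 1 lower, and MSX1 was the large change. SMAD1, a signal transducer, was at 28.7, 26.2, 49.4 and 35.1 CPM in mesoderm and 21.4 to 24.3 in hESC (0.58 ± 0.22, adjusted p 0.0219 in edgeR's test), and at 0.38 with an adjusted p of 0.0959 without replicate 3. SMAD1 also lost its call without hESC replicate 2 (adjusted p 0.0627) or 4 (0.0785), with 10 reads in every library (0.141) and with all 48 libraries in the fit (0.0901). ID1, a direct BMP target, was at 27.3, 26.2, 40.8 and 26.3 CPM against 37.5 to 43.6, so the groups overlapped, by mesoderm replicate 3. It was called lower (-0.47 ± 0.16, adjusted p 0.0102 in edgeR's test), and by -0.64 ± 0.15 (adjusted p 0.000351) without that library. ID1 was not called with upper-quartile scaling or with all 48 libraries in the fit, and changed sign with reference gene scaling (0.06). DUSP6, a phosphatase that reads out FGF and ERK signalling, fell from 868 ± 43.3 to 133 ± 5.75 CPM (-2.70 ± 0.08), while SPRY2, another ERK feedback gene, was at 2314 ± 156 CPM against 1958 ± 63.5 (0.24 ± 0.07) and lost its call without hESC replicate 4. DLL1, a Notch ligand of presomitic mesoderm, rose from 105 ± 9.52 to 576 ± 6.97 CPM (2.46 ± 0.09), and HES5, a Notch target of neural cells, had no read in either group.

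**Figure D3:**
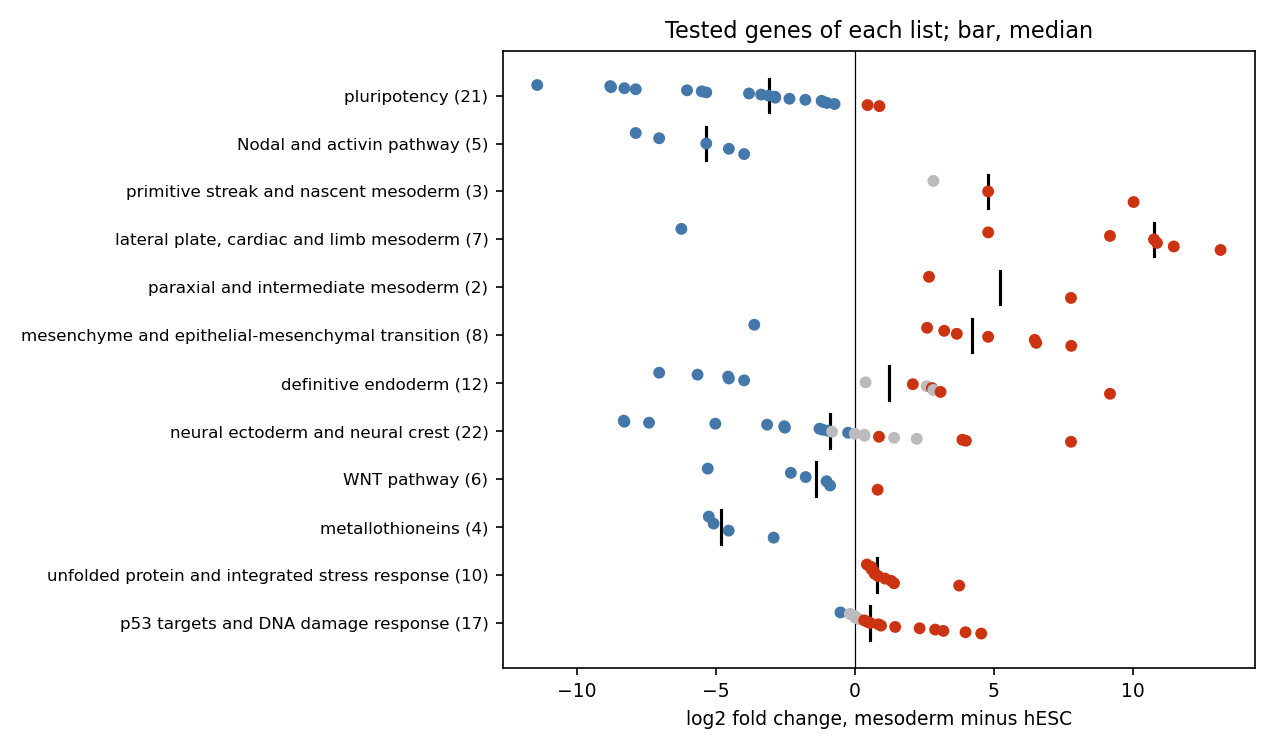
Log2 fold change of mesoderm against hESC (horizontal axis) for the tested genes of 12 lists, with the number of genes in brackets; red, called higher; blue, called lower; grey, not called; black bars, list medians. The Nodal genes and the metallothioneins lie wholly on the lower side, the unfolded protein response genes wholly on the higher side, and the lateral plate list is high with TNNT2 as the exception.

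Genes of other lineages were examined with lists of their own. Of 12 tested definitive endoderm genes 4 were higher, 5 lower and 3 not called, and the list summed to 135 to 174 CPM in mesoderm, 491 to 548 in hESC and 367922 to 464695 in endoderm. SOX17, its defining factor, had 3 reads in mesoderm replicate 3 and none in the other mesoderm libraries or in hESC. FOXA2 was at 2.87, 1.01, 6.68 and 2.70 CPM in mesoderm and 0.49 to 2.96 in hESC (not called, adjusted p 0.524). The higher members were GATA6, KLF5, ALB and CPLX2, the last 3 at means of 18.1, 3.85 and 27.3 CPM. CPLX2, although on this list, was lower in the endoderm cultures (1.84 CPM) than in hESC (6.41). The median log2 fold change of the list was 1.24 with all libraries, 0.39 without SOX17, which had no more than 3 reads in any library of either group, and -0.05 without mesoderm replicate 3. HHEX, a homeobox factor of anterior endoderm, fell from 298 ± 14.5 to 5.78 ± 2.26 CPM (-5.65 ± 0.15).

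Of 22 tested neural genes 4 were higher, 11 lower and 7 not called, with a median of -0.89 (-1.06 with PAX3, at 0 in hESC, set to its bound and without PAX6, EMX2, LMX1A and HES5, which had no more than 3 reads in any mesoderm or hESC library), and the list summed to 4185 to 4396 CPM in mesoderm and 5065 to 5873 in hESC. SIX3, a factor of the forebrain and eye field, was at 41.0 to 45.0 CPM in hESC and had 3 reads in mesoderm (ratio 202, 95% exact interval 68.5 to 981). OLIG1, a factor of oligodendrocyte precursors, had a ratio of 412 over 2 mesoderm reads (114 to 3413), both in replicate 2. PAX6, a defining factor of neural ectoderm, had no read in mesoderm and 0.223 CPM in hESC. MAP2, a neuronal microtubule protein, fell by 5.01 ± 0.22, and ZIC2, a zinc finger factor of the neural plate, fell from 1607 ± 57.0 to 281 ± 17.2 CPM (-2.51 ± 0.06). NCAM1, an adhesion molecule of neural cells and of early mesoderm, rose from 28.8 ± 4.0 to 458 ± 24.5 CPM (3.99 ± 0.11), and NES, an intermediate filament of progenitor cells, rose by 0.87 ± 0.08. Without mesoderm replicate 3, 5 were higher and 10 lower: NEUROG2, with at most 4 reads in any mesoderm or hESC library and not called with all of them, was called higher (adjusted p 0.0426), and GBX2 lost its call. GBX2 was called lower by -0.24 ± 0.10, but also not without hESC replicate 3 or with upper-quartile scaling, and it changed sign with reference gene scaling.

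Amnion and trophoblast share CDX2, HAND1 and ISL1 with the lists above, and these 3 were the called members of 5 tested. KRT18, a keratin of simple epithelia, was at 1279, 1232, 1960 and 1211 CPM in mesoderm and 1362 to 1868 in hESC, and was not called (-0.19 ± 0.17). Without mesoderm replicate 3 it was called lower (-0.39 ± 0.15, adjusted p 0.0261 in edgeR's test), and with reference gene scaling it was called higher (0.34, adjusted p 0.0163), as were all 5 tested members. TP63, a factor of amnion and surface epithelium, had no read in either group. The list summed to 2418 to 3566 CPM in mesoderm and 1362 to 1868 in hESC, and the part of such cells in the CDX2 and HAND1 levels was not tested.

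Adhesion and matrix genes were listed after the values had been seen. CDH2, CD44 and EPCAM are also on the mesenchymal list and NCAM1 on the neural list, so they are counted again here. Of 20 tested, 14 were higher, 5 lower and 1 not called, with a median of 1.46. The list summed to 29329 to 31502 CPM in mesoderm and 7741 to 8094 in hESC. In ectoderm it summed to more, 47732 to 53346 CPM, and in endoderm to 18207 to 20178. GPC3, a membrane proteoglycan of embryonic tissues, was at 17329, 17293, 17173 and 18617 CPM in mesoderm and 1371 to 1457 in hESC (3.63 ± 0.07, adjusted p 2.26e-21). COL2A1, the fibrillar collagen of notochord and cartilage, rose from 33.5 ± 4.52 to 858 ± 48.8 CPM (4.67 ± 0.09), and SPON1, a secreted protein of the floor plate, rose from 50.9 ± 3.04 to 1415 ± 50.9 CPM (4.79 ± 0.11). SULF1, an enzyme that trims heparan sulfate, went the other way, from 70.0 to 4.03 CPM (-4.11 ± 0.16). EFEMP1, also called lower (-0.53 ± 0.10), changed sign with reference gene scaling (0.01).

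Metallothioneins, small proteins that bind zinc and copper, were lower in mesoderm with all 4 genes of the panel. MT2A was at 390, 585, 462 and 529 CPM in hESC and 11.3 to 14.4 in mesoderm (-5.25 ± 0.18, adjusted p 1.24e-16). MT1G, MT1F and MT1X were lower by -5.08 ± 0.20, -4.53 ± 0.11 and -2.92 ± 0.16; these genes are close copies and their reads may be shared. The 4 genes summed to 200 to 237 CPM in mesoderm and 2301 to 3331 in hESC. They were about as low in ectoderm, at 200.5 to 255.8 CPM, and lower in endoderm, at 13.3 to 24.2. The metallothionein list was also chosen after the values had been seen.

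Stress genes moved by list, again with lists made after the values had been seen. All 10 genes of the unfolded protein and integrated stress response were higher, with a median log2 fold change of 0.78. All 10 stayed higher with each of 4 other scalings. They summed to 37088 to 38424 CPM in mesoderm and 22466 to 25015 in hESC. The sum was 44371 to 50673 in endoderm and 20735 to 22261 in ectoderm. DDIT3 (CHOP), a factor of endoplasmic reticulum stress, was at 382, 346, 298 and 380 CPM against 21.8 to 29.6 (3.75 ± 0.14, adjusted p 2.32e-16). HSPA5, the main chaperone of that compartment, was at 383, 362, 864 and 305 CPM against 174 to 216 (1.31 ± 0.35), and at 0.87 ± 0.28 without mesoderm replicate 3. Without that library 9 of the 10 were called, and ATF6B was not; ATF6B also lost its call without hESC replicate 1, 3 or 4. Of 17 p53 targets and DNA damage genes 11 were higher, 1 lower and 5 not called, with a median of 0.55. With reference gene scaling 16 were higher and 0 lower, with a median of 1.08, and without mesoderm replicate 3, 10 were higher. The 17 summed to 6012 to 6736 CPM in mesoderm and 2402 to 2580 in hESC. Their sum was 6664 to 7764 in ectoderm and 5670 to 5853 in endoderm.

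The changes within that p53 list were unequal. CDKN1A (p21), an inhibitor of the cell cycle, was at 886, 894, 785 and 955 CPM in mesoderm and 51.4 to 64.6 in hESC (3.98 ± 0.15, adjusted p 7.98e-16 in edgeR's test). BTG2 rose from 29.8 ± 3.94 to 701 ± 39.0 CPM (4.54 ± 0.10), GDF15 by 2.89 ± 0.12 and FAS by 3.18 ± 0.27. XPC, a DNA damage sensor, rose by 0.44 ± 0.08, and BBC3 (PUMA), a cell death gene, was not called (-0.18 ± 0.13). The kinase CHEK1 was called higher (0.55 ± 0.22, adjusted p 0.0265 in edgeR's test), but at 0.25 with an adjusted p of 0.187 without mesoderm replicate 3, and it also lost its call without hESC replicate 2 or 3. The kinase CHEK2 was lower by -0.51 ± 0.11 but changed sign with reference gene scaling. MKI67, a marker of cycling cells, was at 550, 610, 634 and 719 CPM against 615 to 673 and was not called (-0.04 ± 0.08). It was called higher with reference gene scaling (0.50, adjusted p 0.000186) and lower when 10 reads were required in every library (-0.28, adjusted p 0.0043). TOP2A, another such marker, was lower (-0.36 ± 0.08) and went to 0.17 with reference gene scaling. TXNIP, an inhibitor of thioredoxin and of glucose uptake, rose from 86.6 ± 5.19 to 2658 ± 149 CPM (4.94 ± 0.07).

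Immune genes were mixed: of 10 tested, 3 were higher, 5 lower and 2 not called. Of the 5, IDO1, LCK, TRIM22 and CXCL5 were also counted on the pluripotency list. IL6ST, the shared receptor of the interleukin-6 family, rose from 3.24 ± 0.767 to 36.3 ± 6.35 CPM (3.45 ± 0.28). CD74, the invariant chain of MHC class II, rose by 2.33 ± 0.12, while LCK, a kinase of T cells that hESC also express, fell from 62.3 ± 7.65 to 1.34 ± 0.535 CPM (-5.50 ± 0.26). Among chaperones of the cytosol and mitochondria 1 of 8 was higher and 5 lower, which became 4 higher and 1 lower with reference gene scaling. Without mesoderm replicate 3, 6 were lower, CCT3 (-0.18, adjusted p 0.0162) having gained a call, and without hESC replicate 4, 7 were. HSPD1, a mitochondrial chaperonin, was lower by -0.77 ± 0.08. Of 7 ribosome and translation genes 4 were higher and 1 lower, or 6 and 1 with reference gene scaling. Of the 4, RPS21, went from 1.52 (adjusted p 0.0187) to 0.83 (0.0907) without mesoderm replicate 3, and also lost its call without hESC replicate 1 or 3. Of 12 redox and iron genes 8 were higher and 4 lower, or 10 and 1 with reference gene scaling. Of the 8, SQSTM1 (0.57, adjusted p 0.0306), was at 0.51 (0.0538) without mesoderm replicate 3, and also lost its call without hESC replicate 1 or 3 or mesoderm replicate 4. Of 10 Hippo and actin-linked genes 6 were higher and 4 lower, of 4 ZIC genes 3 were lower, and of 7 SOX genes 1 was higher (SOX11, 1.25 ± 0.09) and 2 lower. SOX4 was not called (-0.26, adjusted p 0.0549), was called lower without mesoderm replicate 3 (-0.38, 0.0088) and was called higher with reference gene scaling (0.27, 0.0206).

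The same mesoderm libraries were then set beside endoderm and ectoderm, which share the fit and the mesoderm libraries with the comparison above. Mesoderm differed from endoderm at 322 of 387 genes (83.2%) and from ectoderm at 339 (87.6%). By an adjusted p under 0.05 and a log2 fold change of at least 1 in each comparison, 25 genes (6.46%) were higher in mesoderm than in each of the other 3 groups and 30 (7.75%) were lower than in each. CDX2 was at 0.751 ± 1.08 CPM in endoderm and 0.165 ± 0.192 in ectoderm, and MSX1 at 7.16 ± 1.29 and 8.53 ± 1.54. HAND1 was at 10.8 ± 2.58 CPM in endoderm and 0 in ectoderm. T was at 76.0 ± 9.76 CPM in endoderm and 7.41 ± 1.78 in ectoderm. FOXF1, MYH6, CD44, GAD1, COLEC10, SNAI2 and VIM were also among the 25. NCAM1, SPON1, TXNIP and CDKN1A were too. PRTG was also among the 25, at 2259 CPM in ectoderm, 1.18 lower on the log2 scale than in mesoderm.

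Not every gene that rose against hESC set mesoderm apart. GATA6 was at 3619 ± 285 CPM in endoderm, far above the 83.3 ± 10.7 of mesoderm. NANOG was lower in mesoderm than in endoderm (64.5 ± 11.3 CPM) and higher than in ectoderm, where a single read was found. SOX2 was at 2.25 ± 0.804 CPM in mesoderm, 5.87 ± 3.62 in endoderm and 5920 ± 240 in ectoderm.

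Among the 30 genes lower than in each other group, several are anterior or neural in the embryo. SIX3 was at 152 ± 9.14 CPM in endoderm and 273 ± 15.5 in ectoderm. OTX2 and HESX1, homeobox factors of the anterior embryo, were at 10.6 and 18.5 CPM in mesoderm against at least 25.5 and 63.9 in each other group. FZD5 was at 26329 ± 2312 CPM in endoderm and 2432 ± 65.6 in ectoderm, and SFRP1 at 13281 and 3829. CYP26A1, LEFTY1, LEFTY2, ZIC2, SOX2 and KDR were also in this set. The set was read for its members after the values were seen, and no test of a shared role was made.

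**Figure D4:**
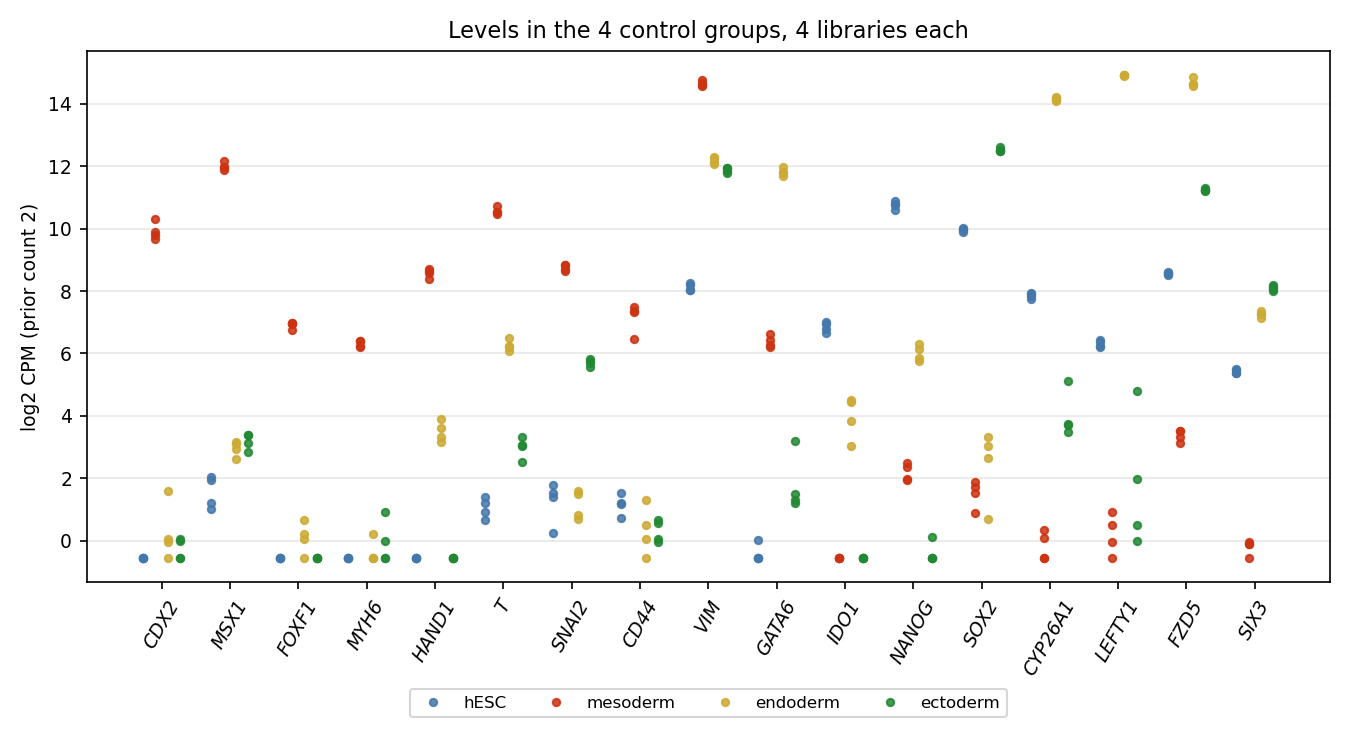
Log2 CPM (prior count 2) of 17 genes in the 4 libraries each of hESC (blue), mesoderm (red), endoderm (yellow) and ectoderm (green); each point is a library. CDX2, MSX1, FOXF1, MYH6, HAND1 and CD44 are high in mesoderm alone, GATA6 is higher in endoderm, and CYP26A1, LEFTY1 and FZD5 are lowest in mesoderm.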

How the data were processed

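RNA of 48 libraries was measured by RASL-Seq, and the deposited values are whole read counts per probe, made by the authors; the aligner is not given in the sources used here. The submitters' processing notes name hg38 and DESeq2 without a role. Column names of the merged table were matched to sample titles, each of the 48 sample tables was identical to its column, and 16 further columns matched no sample and were not used. Gene symbols were matched to the RefSeq table for 442 genes, and 10 more through their transcripts. Promoters were read from RefSeq, GRCh38.p14, which held 335 of the 452 genes.

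Counts of a gene's probes were summed and fitted with edgeR 4.0.16 in R 4.3.3: TMM scaling, edgeR's expression filter by group, robust quasi-likelihood fit of the 16 control libraries (hESC, mesoderm, endoderm and ectoderm), and Benjamini-Hochberg adjustment over the 387 genes that passed. The other 65 genes were not tested. A replicate number in the titles was not used as a block. Log2 CPM used a prior count of 2. Fold bounds used a floor of 3 reads per library where a group had no read, and ratios over 1 to 3 reads have exact (Clopper-Pearson) 95% intervals from summed reads. PCR reads are not independent molecules, so bounds and intervals cover counting error only. Counts were simulated for the mesoderm and hESC comparison over 387 genes, 200 of them changed, as many up as down. Of the changed genes 97% were recovered (95% of 2-fold and 99% of 4-fold changes), 2.51% of calls were false, and none had the wrong direction. The simulation gave every gene the same spread (dispersion 0.02) and held no outlying library. Its rates therefore need not hold for the real calls.

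Named genes were CDX2, HAND1, MSX1, IDO1 and CYP26A1, the 15 largest changes each way among called genes that averaged 50 reads or more in the group with more, up to 6 genes of each list with the largest changes, and defining markers near 0. The members, lists and rules were chosen with earlier results of these data known. The lists on metallothioneins, stress, chaperones, translation, matrix, actin, redox, ZIC and SOX genes were added after the values were seen, and their named genes lie outside that rule. The alternatives were other scalings, filters, tools, probe use, library sets and leaving out single libraries. Python 3.11.15 with matplotlib 3.10.9 was used for plots.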

Additional observations from a re-analysis of the deposited data

Results flagged for a closer look

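In each group of 4 libraries the highest and lowest log2 CPM of the named genes were compared with the other 3. Total reads and the share of reads in the highest probes were compared in the same way. At 8 of 113 combinations of a measure and a group (7.08%) a library stood apart, where chance gives about 5%. All 8 were combinations with a gene. Mesoderm replicate 3 did so for 3 genes: CD44 was lowest in it (6.46 log2 CPM), KRT18 highest (10.94) and ID1 highest (5.38). PRTG was lowest in mesoderm replicate 1 (12.09). In hESC, replicate 2 was lowest for SYT6 (6.86), replicate 4 lowest for CNTN1 (6.56) and FOXA1 (5.58), and replicate 1 lowest for ZIC2 (10.57). Against the change from hESC to mesoderm these steps were small for PRTG, SYT6, CNTN1, FOXA1, ZIC2 and CD44, whose calls held without the library concerned. The part of mesoderm replicate 3 in the KRT18 and ID1 values was not tested beyond leaving it out.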

How the results depend on the processing

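Counts of called genes stayed within 1.5 times of the reported ones except in a few settings. With at least 10 reads required in every library, 215 of 247 genes were called, 88 of them higher; fewer genes were tested. The same setting called 208 genes against endoderm and 218 against ectoderm. With each probe tested on its own 700 of 903 probes were called (77.5%), 307 higher and 393 lower, with 688 against endoderm and 724 against ectoderm. Same-numbered mesoderm and hESC libraries deviated from their group means with correlations of -0.071, -0.081, -0.101 and -0.012. For mesoderm and endoderm these were 0.082, 0.162, 0.304 and 0.055, and for mesoderm and ectoderm 0.147, 0.224, 0.494 and 0.01. With endoderm and ectoderm all were above 0 and highest for replicate 3, which had the fewest reads in each of the 4 groups. In no comparison were all 4 pairs above 0.1, and the main fit did not pair the libraries. Whether same-numbered libraries shared a preparation is not given by the labels and was not tested. With the replicate block 323 genes were called, 331 against endoderm and 341 against ectoderm. Fitting all 48 libraries called 264. Leaving out each library in turn gave 309 to 319 calls, 148 to 155 higher and 160 to 168 lower, with 315 to 326 against endoderm and 329 to 339 against ectoderm. For single named genes 1231 of 1269 alternative values kept direction and call. RPL13A, near 0, turned to -0.028 with median-ratio factors, -0.2026 with 10 reads in every library, -0.0281 with DESeq2 and -0.0084 with all 48 libraries, and ran from -0.0306 to 0.065 with single libraries left out. MKI67 turned to 0.0626 with upper-quartile factors, 0.0796 with library totals, 0.4972 with reference gene scaling and 0.1042 with the top probe, and ran from -0.1405 to 0.0159 with single libraries left out. Reference gene scaling also turned KRT18 (0.3422), ID1 (0.0634), TOP2A (0.1705), PGK1 (0.0136) and ACTB (0.0906), and the top probe turned ID1 (0.0211); the cause was not tested. Genes with a few reads, such as EOMES, SOX17 and the untested heart factors, are limited by depth.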
